A study of Mus musculus with 8 samples.

Results

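The cytosolic ribosomal protein genes encode the protein part of the ribosome, the particle that translates mRNA in the cytoplasm. They were taken as all mouse protein-coding genes whose symbols begin with Rpl or Rps followed by a digit or the letter p, without the Rps6k kinase genes. Of 21887 protein-coding genes, 100 matched the symbols, 10 of these were kinases, and 90 remained. Of the 90, 43 encode proteins of the large subunit, 3 encode the acidic stalk proteins and 30 encode proteins of the small subunit. These 76 are called the listed ribosomal proteins. The other 14 are paralogs, retrocopies annotated as protein-coding and genes named after a ribosomal protein. Rpsa, Fau and Rack1 also belong to the ribosome, but their symbols do not match.

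The assay was ATAC-seq, which marks open chromatin by the insertion of adapters with Tn5 transposase. It was run on induced pluripotent stem cells of a clonal mouse line carrying the FUCCI2 cell cycle reporters. There were 8 libraries in 4 groups of 2. One group was arrested in mitosis with nocodazole, a drug that blocks the spindle, at 200 ng/ml for 6 hours and collected by shake-off. Further groups were taken 1 and 3 hours after release from that arrest, and the asynchronous group was untreated. All cells were grown on irradiated feeder cells in medium with serum, the cytokine LIF and the 2i pair, which inhibits MEK and GSK3. The line is 1 clone, and the labels do not say whether the replicates were separate cultures. A combined list of 76872 accessible regions gives their positions and nothing measured in each library. The list therefore allowed no comparison of the 4 groups and no estimate of spread between replicates, and the depth is unknown. The labelled cell type and the share of feeder DNA were not tested. The regions have a median width of 281 bp and a minimum of 73 bp.

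Ribosomal protein genes are background examples of housekeeping genes: nearly every cell transcribes them at high levels, because each ribosome needs a copy of almost every protein. Their mRNAs typically begin with a C followed by a run of pyrimidines, the terminal oligopyrimidine motif, through which the kinase mTOR controls their translation. Their promoters are known to bind ETS family factors such as GABP, as well as SP1 and YY1. Many of their introns carry snoRNAs, the guide RNAs for the modification of ribosomal RNA. The spliced mRNAs have been copied back into the genome many times, which has left numerous pseudogenes and a few expressed retrocopies.

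Many of the results rest on listed starts, and 7 stretches around such starts are shown. They were chosen because each begins with C and a run of at least 5 pyrimidines at the listed start. Such a run was present in 12 of the 56 listed ribosomal proteins with a listed start (21.4%), so the stretches are not typical of the rest. The stretches are taken from RefSeq on GRCm38.p6 and given on the strand of the gene. Each runs from 50 bases before the listed start of a gene to its first 30 bases. Capitals mark the unbroken run of pyrimidines that begins at the listed start. An accessible region covered the start of each gene in the first 6 stretches, namely Rpl15 (chr14:18270957-18271036, minus strand), Rpl28 (chr7:4792915-4792994, plus), Rpl35 (chr2:39005102-39005181, minus), Rps6 (chr4:86857338-86857417, minus), Rps10 (chr17:27635215-27635294, minus) and Rps18 (chr17:33955636-33955715, minus). The last is Rpl32l (chr10:20208389-20208468, plus), a copy of Rpl32, which begins with a like run but had no region at its start.
Rpl15: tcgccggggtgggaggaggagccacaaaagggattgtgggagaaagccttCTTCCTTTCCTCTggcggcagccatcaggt
Rpl28: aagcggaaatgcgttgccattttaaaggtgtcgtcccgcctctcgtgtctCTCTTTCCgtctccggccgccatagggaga
Rpl35: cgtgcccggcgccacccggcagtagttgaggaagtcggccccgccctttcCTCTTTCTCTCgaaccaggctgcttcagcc
Rps6: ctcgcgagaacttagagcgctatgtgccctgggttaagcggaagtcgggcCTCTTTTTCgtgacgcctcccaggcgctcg
Rps10: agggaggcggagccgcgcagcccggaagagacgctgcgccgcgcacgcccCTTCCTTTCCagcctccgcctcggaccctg
Rps18: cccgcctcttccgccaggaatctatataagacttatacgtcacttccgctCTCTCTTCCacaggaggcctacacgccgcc
Rpl32l: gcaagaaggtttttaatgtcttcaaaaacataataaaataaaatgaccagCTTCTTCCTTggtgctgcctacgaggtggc

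A region lay within 1 kb of an outer limit, the start or the far end, of 82 of the 90 genes (91.1%, 95% Wilson interval 83.4 to 95.4%), against 62.0% of all protein-coding genes. Among the 76 listed ribosomal proteins the count was 74 (97.4%, interval 90.9 to 99.3%), and among the other 14 genes it was 8 (57.1%, interval 32.6 to 78.6%). By subunit, 42 of 43 large subunit genes, 3 of 3 stalk genes and 29 of 30 small subunit genes had a region. The ribosomal protein genes are short, with a median span of 3170 bp against 17169 bp for all protein-coding genes. Of the 1868 protein-coding genes with a span between the quartiles of the ribosomal protein genes, 56.4% had a region at an outer limit. The intervals cover counting error only. Genes in 1 list of regions are not replicates, and no test between gene groups was made.

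**Figure D1:**
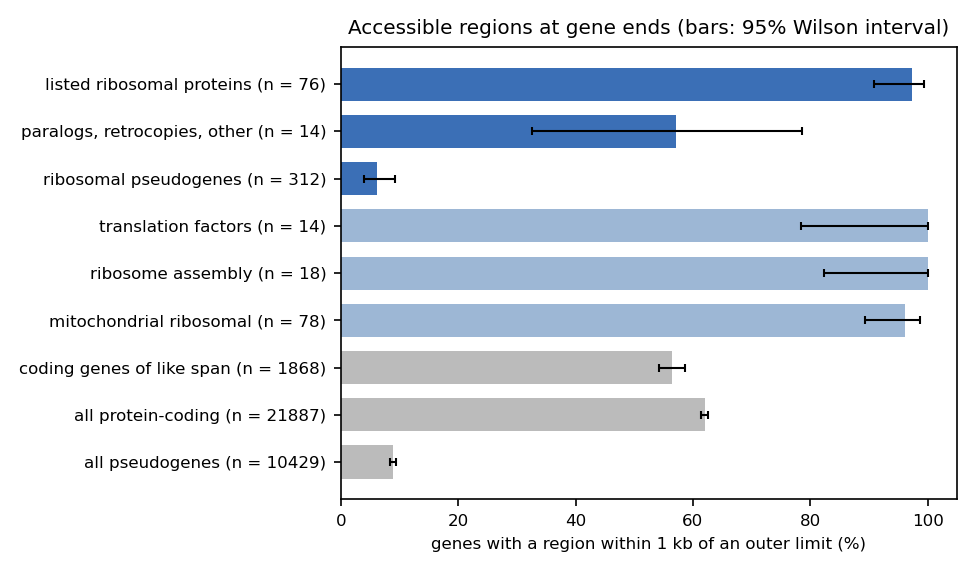
Percentage of genes with an accessible region within 1 kb of an outer limit, by gene group, with the number of genes in each. Error bars are 95% Wilson intervals. The listed ribosomal proteins reached 97.4%, all protein-coding genes 62.0% and ribosomal protein pseudogenes 6.09%.

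The 2 listed genes without a region at an outer limit, Rpl17 and Rps2, each had one inside the gene. Rpl17, a large subunit protein near the exit tunnel, had a region of 414 bp at chromosome 18, 75000169 to 75000582, 1191 bp inside its lower limit. A region at an outer limit or touching the gene was thus found for 76 of 76 listed genes, against 73.6% of all protein-coding genes.

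Rps2, a small subunit protein at the entry side of the mRNA channel, had a region of 634 bp at chromosome 17, 24719604 to 24720237, which lay 1483 bp inside the lower outer limit. This region covered the listed start of Rps2 at 24720063, 1942 bp inside the outer limit of the annotated gene.

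The promoter window of Rps2 is shown because its region would be missed by the outer limits alone. It runs from 250 bases before the listed start to 50 bases from it on (chr17:24719813-24720112, plus strand), and capitals mark the ETS motif in reverse complement, CTTCCGG, and the SP1 motif GGGCGG.
Rps2: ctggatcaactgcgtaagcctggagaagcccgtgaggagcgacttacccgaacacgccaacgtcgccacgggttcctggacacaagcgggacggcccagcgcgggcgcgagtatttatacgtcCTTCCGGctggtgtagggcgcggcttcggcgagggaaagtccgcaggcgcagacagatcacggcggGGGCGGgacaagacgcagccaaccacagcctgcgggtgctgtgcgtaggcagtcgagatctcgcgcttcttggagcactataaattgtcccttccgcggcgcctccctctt

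RefSeq start windows, which give the strand and the start, were listed for 69 of the 90 genes. Those not listed included Rpl3, Rpl7, Rpl8, Rpl17, Rpl21, Rpl23a, Rpl29, Rpl30, Rpl32, Rpl34-ps1, Rpl36, Rplp1, Rps14, Rps20, Rps27a and Rps29. Of the 69, 63 (91.3%, interval 82.3 to 96.0%) had a region within 1 kb of a listed start, against 62.5% of the 17492 protein-coding genes with a listed start. In each of the 63 the region covered the start base itself, which was so for 53.3% of all genes with a listed start. The 63 comprised all 56 listed ribosomal proteins with a window, that is 32 of the large subunit, 2 of the stalk and 22 of the small subunit, and 7 of the other 13 genes.

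The regions over the starts reached to either side by similar lengths. Their median reach was 346 bp upstream (quartiles 235 and 469 bp) and 295 bp downstream (quartiles 200 and 432 bp), against 335 and 325 bp over all protein-coding genes with a covered start. The upstream side was the longer in 35 of 63 genes (55.6%), against 51.0% of all genes with a covered start. Individual genes differed more. At Rpl10, a late-joining protein of the large subunit, the region reached 949 bp upstream and 33 bp downstream. At Rps25 the reach was 900 and 140 bp, and at Rps19, the gene most often mutated in Diamond-Blackfan anaemia in humans, it was 864 and 115 bp. The opposite shape was found at Rpl5, a binding partner of the 5S ribosomal RNA, with 350 bp upstream and 724 bp downstream. Rps7 had 166 and 652 bp, and the X-linked Rps4x had the shortest upstream reach, 115 bp, with 346 bp downstream.

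**Figure D2:**
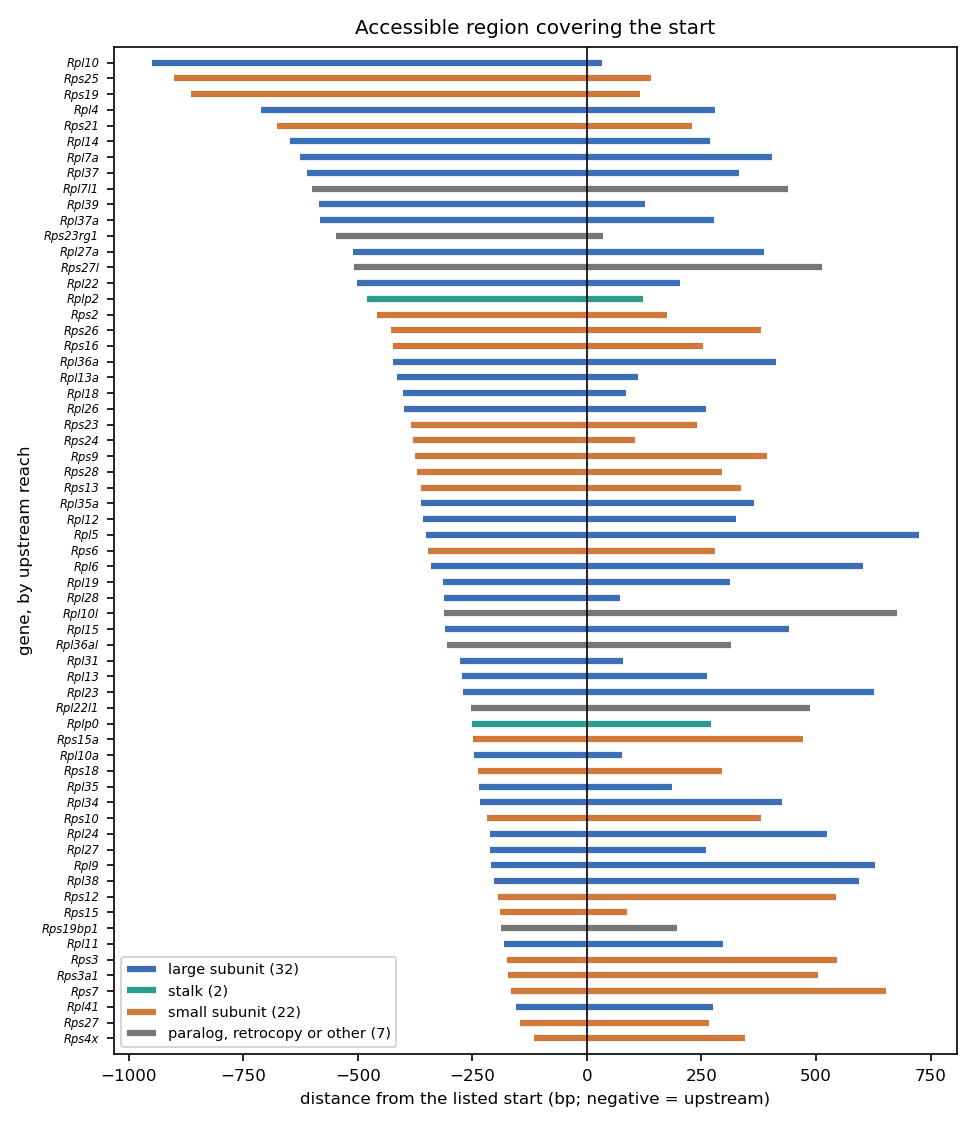
Accessible region covering the listed start of each of 63 ribosomal protein genes, drawn from its upstream to its downstream edge in bp from the start at 0 and ordered by upstream reach. The upstream reach ran from 115 bp at Rps4x to 949 bp at Rpl10, and the downstream reach from 33 bp at Rpl10 to 724 bp at Rpl5.

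The widest region at an outer limit had a median width of 717 bp over the 82 genes (quartiles 547 and 858 bp, range 244 to 1305 bp). Over all protein-coding genes with such a region the median was 660 bp (quartiles 434 and 885 bp, range 73 to 2320 bp). The genes lay on 19 chromosomes, 14 of them on chromosome 7, where the widths ran from 385 bp at Rpl28 to 980 bp at Rps19. Medians were 731 bp for the large subunit, 602 bp for the stalk and 721 bp for the small subunit. Of the 82 genes, 7 had a region of 1000 bp or more, 58 lay between 500 and 1000 bp and 17 were narrower. Width is an edge-to-edge length set by the peak calling and not a level of accessibility.

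The widest region at a ribosomal protein gene, of 1305 bp, lay at chromosome 1, 16104112 to 16105416, at the upper limit of Rpl7, and also within 1 kb of an end of Rdh10, a retinol dehydrogenase gene. The next were 1075 bp at Rpl5 (chromosome 5, 107900178 to 107901252), 1070 bp at Rpl41 (chromosome 10, 128547249 to 128548318), 1041 bp at Rps25 (chromosome 9, 44406814 to 44407854) and 1039 bp at Rpl7l1. Rpl41 encodes the smallest protein of the ribosome. Its region of 1070 bp reached into the lower, far end of the gene and toward Zc3h10, while the start of Rpl41 was covered by another region of 431 bp.

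At the narrow end stood Rpl19 with 244 bp, Rps15 with 278 bp, Rpl10a with 324 bp, Rpl31 with 356 bp, and Rpl8 and Rps19bp1 with 384 bp each. For Rpl19 the outer limits again missed the main region. Its listed start lies 4707 bp inside the annotated gene, and the region there, at chromosome 11, 98026397 to 98027022, was 626 bp wide. For Rps15 and Rpl10a the narrow region was the one over the start, with a second region of 130 bp just downstream at Rpl10a. Rps19bp1 encodes a binding partner of the small subunit protein RPS19 and is not itself a ribosomal protein.

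**Figure D3:**
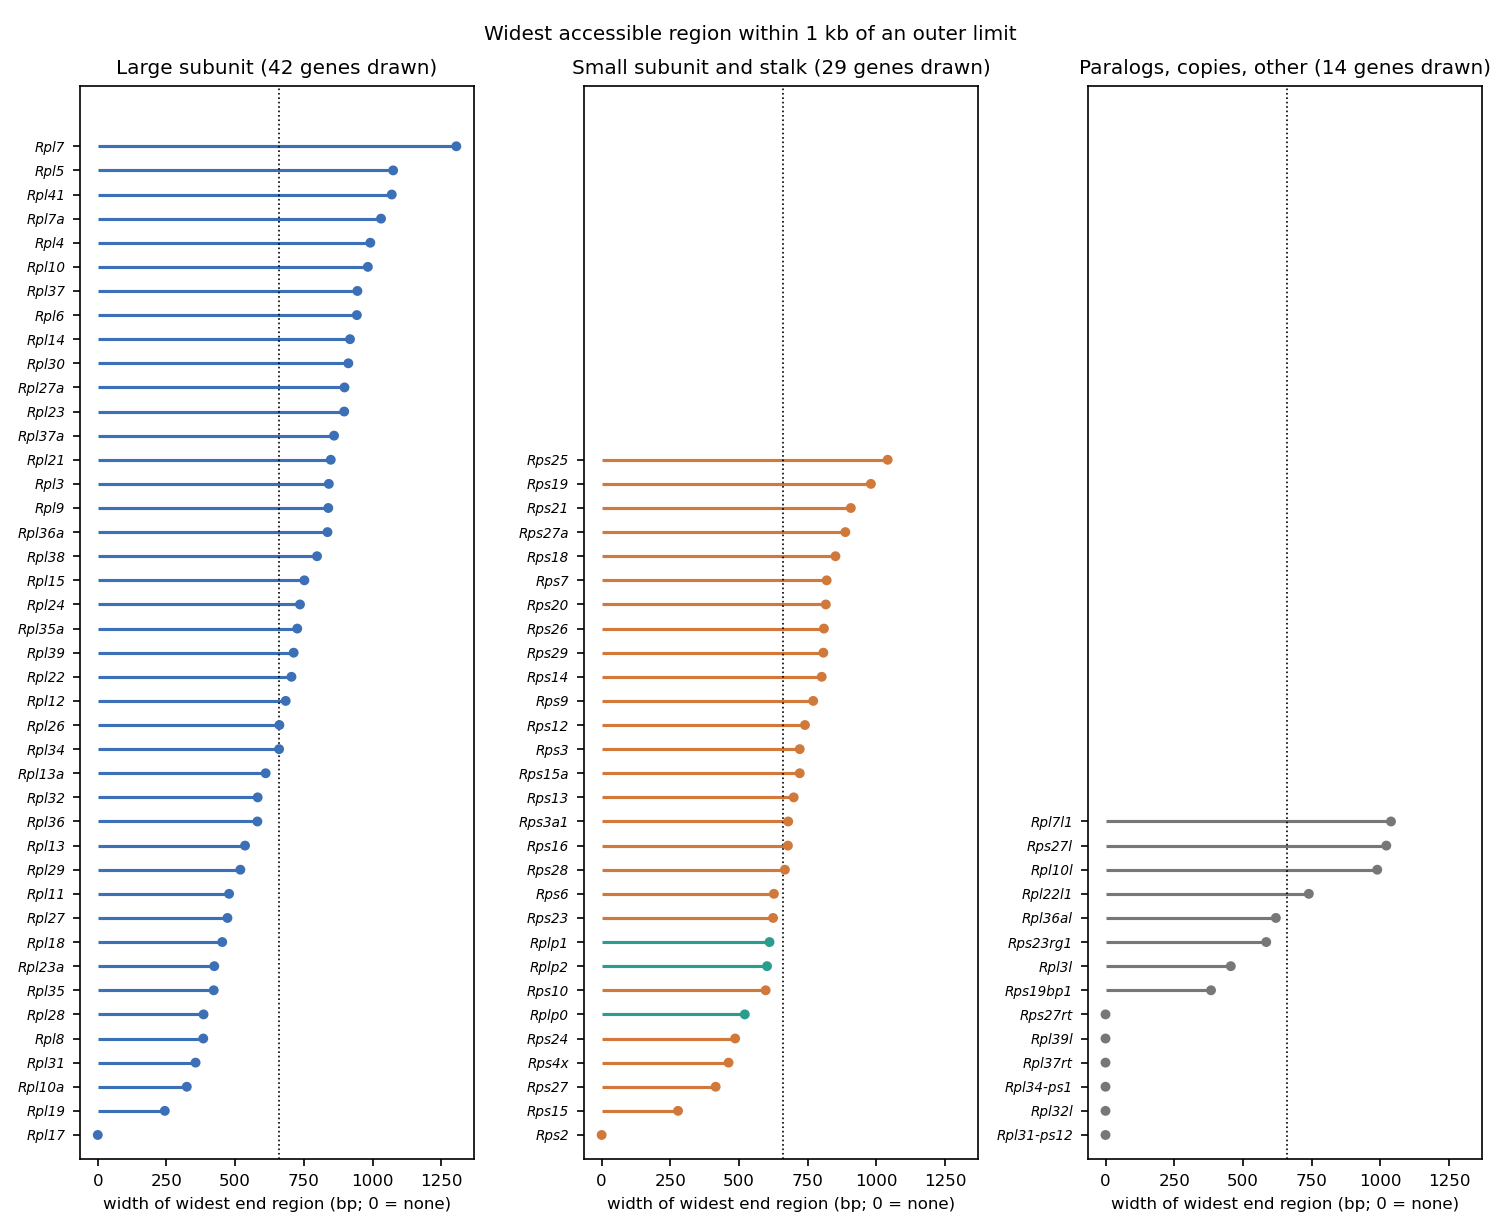
Width in bp of the widest accessible region within 1 kb of an outer limit for 85 of the 90 genes, in 3 panels by role, with 0 for no region and stalk genes in green. The dotted line is the median of all protein-coding genes with a region, 660 bp. Values run from 244 bp at Rpl19 to 1305 bp at Rpl7, and 8 genes stand at 0.

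Regions at both outer limits were found for 25 of the 90 genes (27.8%), against 8.47% of all protein-coding genes. The share was 20.5% among 78 mitochondrial ribosomal protein genes and 22.2% among 18 ribosome assembly genes. It was 21.4% among 14 translation factors and related genes, so it was not particular to ribosomal protein genes. In 5 of the 25 at least 1 region was within reach of both limits, as at Rplp1, Rps27 and Rpl10l, which are short. Separate regions at the 2 limits were found for 20 genes, against 7.21% of all genes. Where the strand is listed, 14 of 69 genes had a further region at the far end (20.3%), with a median width of 407 bp, against 10.4% and 328 bp over all genes with a listed start. Whatever the strand, the narrower of the widest regions at the 2 limits of the 20 genes was 977 bp at Rpl7l1, 863 bp at Rpl4, 654 bp at Rpl3 and 561 bp at Rps19, the highest such values. At Rpl4 the far region also lay at an end of Snapc5 and the start region at an end of Zwilch.

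A region at an outer limit was shared with an end of another protein-coding gene for 26 of the 90 genes (28.9%), against 16.7% of all protein-coding genes. Among the 1868 protein-coding genes of like span the share was 20.6%. Only a gene with a region at an outer limit can share one, and such a region was present for 91.1% of the ribosomal protein genes and 62.0% of all. The widest shared regions were those of Rpl7 with Rdh10, Rpl41 with Zc3h10, Rps25 with Trappc4, and Rpl7a with Med22, a subunit of the Mediator complex, at 1305, 1070, 1041 and 1031 bp. Which of 2 neighbouring genes a shared region belongs to cannot be read from the list.

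A snoRNA gene lay inside the span of 29 of the 90 genes (32.2%), against 1.70% of all protein-coding genes, and these 29 genes held 56 snoRNA genes. All 29 are listed ribosomal proteins, 19 of the large subunit, 1 of the stalk and 9 of the small subunit. Rpl4 held 5, and Rpl7a and Rpl13a held 4 each. This is a property of the annotation, not of the accessible regions.

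The 6 genes with a listed start but no region within 1 kb of it all stood outside the list of ribosomal proteins. Of the 14 genes outside the list of ribosomal proteins, 6 had no region at an outer limit: Rpl31-ps12, Rpl32l, Rpl34-ps1, Rpl37rt, Rpl39l and Rps27rt. Rpl37rt had a region of 374 bp inside the gene, at chromosome 5, 115107507 to 115107880, which ended 2388 bp from its upper limit, where its listed start lies. The other 5 were touched by no region. Rpl3l, the muscle paralog of Rpl3, had a region of 456 bp, but this lay beyond its far end, at chromosome 17, 24736226 to 24736681, and was shared with an end of Msrb1. No region lay within 1 kb of either listed start of Rpl3l.

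Of these 14 genes, 7 did have a region over the start. Rpl7l1 had 1039 bp, Rps27l 1022 bp, Rpl10l 989 bp, Rpl22l1 740 bp, Rpl36al 620 bp, Rps23rg1 585 bp and Rps19bp1 384 bp. Rpl22l1 is the paralog of Rpl22, which had 705 bp, and Rps27l, known as a p53 target, is the paralog of Rps27, which had 415 bp. Rpl36al had a narrower region than Rpl36a, at 620 against 836 bp. The region of Rpl36al also lay at an end of Mgat2. Rps23rg1 had 585 against 624 bp at Rps23.

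Rpl10l is known from mouse testis, where it takes the place of the X-linked Rpl10 during male meiosis. In these stem cells its region of 989 bp, at chromosome 12, 66283724 to 66284712, covered the start and 677 bp downstream of it in a gene of 1023 bp, and reached 311 bp upstream. The region of Rpl10 itself was 983 bp. By contrast Rpl39l, known as the testis paralog of the X-linked Rpl39, had no region within 1 kb of its outer limits, and 1 distal region within 50 kb. Rpl39 had a region of 713 bp and 5 distal regions. Accessibility of a gene in the list does not show that it is transcribed, and no expression was measured here.

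The windows of Rpl39l (chr16:10169978-10170277, plus strand) and Rpl39 (chrX:37085173-37085472, minus strand), from 250 bases before the listed start to 50 bases from it on, are shown because the first had no region and the second did. Capitals mark the ETS motif CCGGAAG or its reverse complement CTTCCGG, which occurs at 2 places in Rpl39l and 1 in Rpl39. Each window holds 17 CpG dinucleotides.
Rpl39l: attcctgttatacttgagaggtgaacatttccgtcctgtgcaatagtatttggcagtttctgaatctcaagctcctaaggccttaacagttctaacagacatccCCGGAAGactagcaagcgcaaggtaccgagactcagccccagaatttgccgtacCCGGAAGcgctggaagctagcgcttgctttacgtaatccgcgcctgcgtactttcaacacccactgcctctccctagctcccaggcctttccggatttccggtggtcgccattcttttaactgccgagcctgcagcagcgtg
Rpl39: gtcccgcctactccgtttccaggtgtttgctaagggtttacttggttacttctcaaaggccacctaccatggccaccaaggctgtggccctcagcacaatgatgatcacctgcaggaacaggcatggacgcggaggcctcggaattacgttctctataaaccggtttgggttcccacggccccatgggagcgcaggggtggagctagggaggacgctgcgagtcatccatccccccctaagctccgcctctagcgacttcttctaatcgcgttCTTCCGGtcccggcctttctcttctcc

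Retrocopies carry the sequence of the spliced mRNA but not that of the promoter. The pair shown is Rps27rt (chr9:114982710-114982789, minus strand) and its source Rps27 (chr3:90213619-90213698, minus strand). The stretch runs from 50 bases before the listed start to the first 30 bases. Capitals mark the part of their longest shared run that falls in this stretch. The run is 38 bases long in their whole windows and begins at the first base of Rps27rt, and the base before it differs.
Rps27rt: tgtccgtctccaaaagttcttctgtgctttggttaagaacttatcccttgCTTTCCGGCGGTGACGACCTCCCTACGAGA
Rps27: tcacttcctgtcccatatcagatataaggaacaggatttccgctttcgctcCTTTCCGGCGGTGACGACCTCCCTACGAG
A region of 415 bp covered the start of Rps27, and none lay within 1 kb of Rps27rt. For Rpl31-ps12 and its source Rpl31 the longest shared run was 12 bases, and Rpl31 had a region of 356 bp. For Rpl37rt and Rpl37 the longest shared run was 8 bases and lay upstream of the listed start of Rpl37rt. Not every such pair thus shared a run that begins at the listed start of the copy, as Rps27rt and Rps27 did. Where copies are nearly identical, reads from either may map to both and be lost or moved. The treatment of such reads, a step not given in the sources used here, was not tested for its part in the missing regions.

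Ribosomal protein pseudogenes were mostly without regions. Of 312 pseudogenes with symbols by the same rule, 19 (6.09%, interval 3.93 to 9.31%) had a region within 1 kb of an outer limit, against 8.92% of all 10429 pseudogenes. A region touched 6 of them (1.92%, interval 0.884 to 4.13%), against 6.58% of all pseudogenes. The ribosomal protein pseudogenes are short, with a median of 527 bp against 932 bp for all pseudogenes. Whether length bears on the share touched was not tested. Those touched included Rpl13a-ps1, Rpl36-ps8, Rpl36-ps12, Rps19-ps5 and Rps4l. Rps4l, annotated as a transcribed pseudogene, had the widest of these, 1351 bp at chromosome 6, 148353938 to 148355288. A region of 2971 bp near Rpl17-ps10 did not touch it. These pseudogenes were named after their values were seen.

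Distal regions, those more than 1 kb from every outer limit of a protein-coding gene, were counted within 50 kb of either limit. The ribosomal protein genes had a median of 5 (quartiles 3 and 7, range 0 to 14), against 4 (quartiles 2 and 6) over all protein-coding genes. Medians were 5 for the large subunit, 6 for the stalk, 5 for the small subunit and 3.5 for the 14 other genes. The nearest distal region lay at a median of 5.52 kb, against 7.59 kb over all protein-coding genes, which have longer spans. Among the 1868 protein-coding genes of like span the medians were 3 distal regions and 11.3 kb. The 441 different distal regions near ribosomal protein genes had a median width of 206 bp (quartiles 125 and 365 bp, maximum 1210 bp), against 246 bp for all 61093 distal regions. Of the 441, 18 lay within 50 kb of more than 1 ribosomal protein gene. Rps2 and Rpl19, whose first listed start is far inside the annotated span, have the region over that start among their distal ones by this rule. Rpl17, Rpl36, Rpl37rt, Rps15a, Rps20 and Rps23rg1 also have regions inside the gene among their distal ones.

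Among the genes with many distal regions, Rps23rg1 had 12, Rps29 had 11, and Rps16, Rps18, Rps19 and Rps21 had 10 each. The count for Rps23rg1 includes regions inside its span of 16779 bp. None was found near Rps4x and Rps25, 2 of the 90 genes (2.22%), against 9.26% of all protein-coding genes. Among protein-coding genes of like span the share without any was 12.7%. For Rps4x and Rps25 the nearest distal regions lay 53991 and 53871 bp away. The large subunit genes had 1 to 10 distal regions each.

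**Figure D4:**
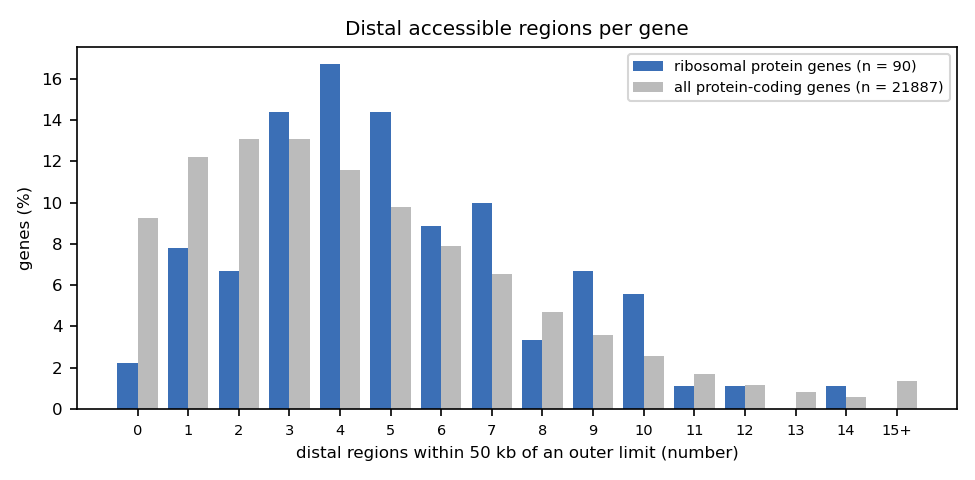
Percentage of genes by the number of distal accessible regions within 50 kb of an outer limit, for the 90 ribosomal protein genes and for all 21887 protein-coding genes. Of the ribosomal protein genes 2.22% had none, against 9.26% of all, and none had 15 or more, against 1.38% of all.

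Motifs were sought in the window from 250 bases before to 50 after the first listed start of each gene, for the 69 ribosomal protein genes with a window. All were sought on both strands except the pyrimidine tract, which was sought on the strand of the gene. The ETS motif CCGGAAG was present in 24 windows (34.8%, interval 24.6 to 46.6%), against 11.9% of all 17492 windows. With a covered start it was in 23 of 63 (36.5%), against 20.3% of the 8935 windows whose start was covered by a region. The mitochondrial ribosomal protein genes were similar, with 25 of 69 (36.2%, interval 25.9 to 48.0%). The tract CTTTCC was present in 24 windows (34.8%), against 13.8% of all, 14.2% of those with a covered start and 17.4% of the mitochondrial ones. The tract ends in the bases CC with which the ETS motif begins, so the 2 can overlap. By subunit the ETS motif was in 12 of 32 large subunit windows, 1 of 2 stalk windows and 9 of 22 small subunit windows, among them Rpl11, Rpl19, Rpl41, Rplp2, Rps6 and Rps25. The tract CTTTCC was in 15 of the 32 large subunit windows and 4 of the 22 small subunit windows. Without a region over the start, Rpl39l was the 1 gene of 6 with the ETS motif, and none of the 6 had the SP1 motif. With so few windows, a motif missing from all of them can still have a sizeable share. Motif shares over other protein-coding genes without a covered start were not computed, so whether these 6 differ from them was not tested. The tract CTTTCC was in 3 of these 6 windows and in 21 of the 63 with a covered start.

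At the listed start itself, 14 of the 69 genes (20.3%, interval 12.5 to 31.2%) began with C and had pyrimidines in the first 5 bases. This was so for 2.17% of all windows. With a covered start it was so for 12 of 63 (19.0%), against 2.33% of all such windows. Of the 14, 12 were listed ribosomal proteins, and the other 2 were the retrocopies Rpl32l and Rps27rt, which had no region. The 12 were Rpl14, Rpl15, Rpl28, Rpl35, Rpl38, Rplp2, Rps6, Rps10, Rps15a, Rps18, Rps21 and Rps27. The longest run was 13 bases, at Rpl15, followed by 11 at Rpl35 and 10 at Rps10 and Rpl32l. None of 69 mitochondrial ribosomal protein genes began in this way, which allows a share of up to 4.35%. A listed start that is off by a few bases would hide the run, so the share depends on the annotation.

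The other motifs were sought in the same windows. SP1, GGGCGG, was present in 39 windows (56.5%), against 46.3% of all. All 39 were among the 63 with a covered start (61.9%, interval 49.6 to 72.9%), against 69.7% of all windows with a covered start. The CCAAT box, CCAAT, was present in 21 (30.4%), against 39.0% of all. With a covered start it was in 20 of 63 (31.7%), against 42.2% of all such windows. The TATA box, TATAAA, was present in 8 (11.6%), against 13.3% of all and 6.01% of those with a covered start. Of the ribosomal protein windows it was in 6 of the 63 with a covered start and 2 of the 6 without. The E-box CACGTG, bound by MYC, was present in 5 (7.25%), against 7.90% of all. With a covered start it was in 5 of 63 (7.94%), against 11.1% of all such windows. YY1, AAGATGGC, was present in 5 (7.25%, interval 3.13 to 15.9%), against 3.22% of all and 17.4% of the mitochondrial ribosomal protein windows. With a covered start its share was 7.94%, against 5.06% of all such windows. NRF1, GCGCATGC, was present in 2 (2.90%), against 3.61% of all and 11.6% of the mitochondrial ones. With a covered start its share was 3.17%, against 6.42% of all such windows. The 5 windows with the YY1 motif were those of Rpl13a, Rpl35a, Rpl7l1, Rps15a and Rps27. The 5 with the E-box were Rpl13a, Rpl14, Rpl19, Rpl23 and Rpl34, out of 32 large subunit windows (15.6%, interval 6.86 to 31.8%). The E-box was in 0 of 22 small subunit windows, which allows a share of up to 13.6%. A match describes letters in the window and not binding.

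**Figure D5:**
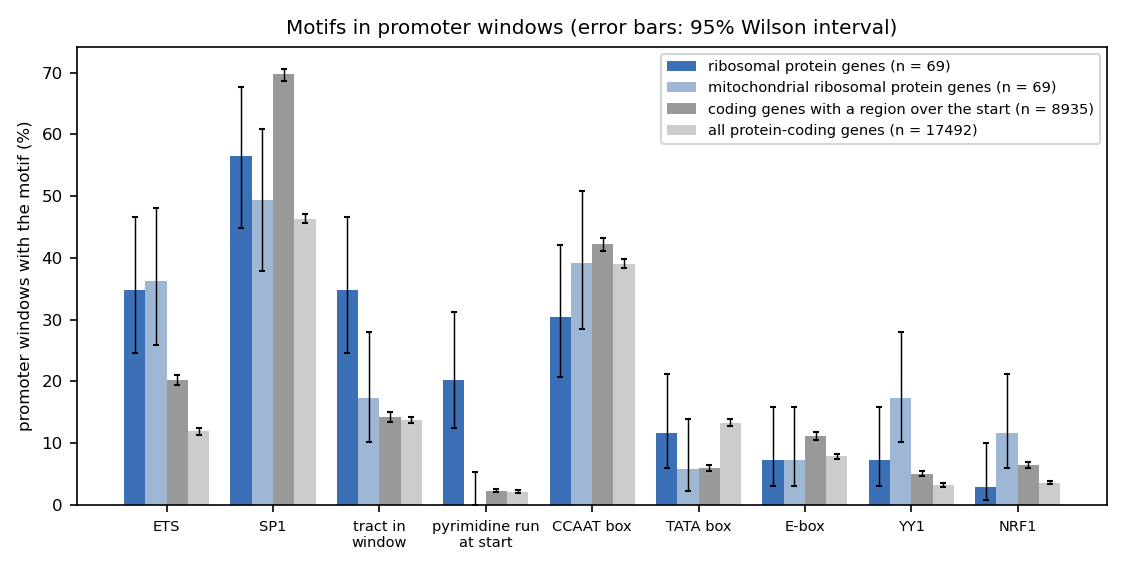
Percentage of promoter windows with each motif in 69 ribosomal protein genes, 69 mitochondrial ribosomal protein genes, 8935 protein-coding genes with a region over the first listed start and all 17492 protein-coding genes with a window. Error bars are 95% Wilson intervals. The ETS motif stood at 34.8%, 36.2%, 20.3% and 11.9%, and the pyrimidine run at the start at 20.3%, 0%, 2.33% and 2.17%.

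CpG dinucleotides were also counted. The 63 windows whose start was covered held a median of 21 CpG (quartiles 16 and 26, range 4 to 42), and the 6 without a region held a median of 6.5 (range 2 to 17). The medians were 22 over all covered windows and 13 over all windows. Among the uncovered starts, Rpl3l had 2, Rpl32l 3, Rpl31-ps12 4, Rps27rt 9, Rpl37rt 12 and Rpl39l 17. Rps23rg1 was the exception among covered starts, with 4. The lowest counts among covered listed ribosomal proteins were 8 at Rpl6, 10 at Rpl11 and 10 at Rpl24.

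Other genes of translation resembled the listed ribosomal proteins in having a region at an outer limit. Rpsa, Fau and Rack1, ribosomal proteins under other names, each had a region, of 650, 534 and 1022 bp, and Rack1 had 16 distal regions. All 14 translation factors and related genes known for pyrimidine-tract mRNAs had a region, with a median width of 841 bp and a median of 7 distal regions. Eef1a1 had 12 and Eef2 had 10, both elongation factors. All 18 ribosome assembly genes had a region, with a median of 799 bp and 4 distal regions, the most being 9 at Ncl and 8 at Grwd1. Of 78 mitochondrial ribosomal protein genes, 75 had a region (96.2%, interval 89.3 to 98.7%), with a median width of 638 bp and 4 distal regions. The 3 without, Mrpl22, Mrpl23 and Mrpl24, were each touched by a region inside the gene. A shared end region was found for 40 of the 78 (51.3%), and a snoRNA gene lay inside 1 of them (1.28%).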

How the data were processed

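Positions were analysed from the deposited list of regions, which gives a chromosome, a start and an end in base pairs. The build is GRCm38 (mm10), and the tools are MACS2 2.1.1, Bowtie2, cutadapt, SAMtools, Picard and bedtools, per the submitters' processing notes. Still not given in the sources used here: parameters, any shift for the Tn5 insertion, the handling of multi-mapped reads and how libraries were merged. The labelled molecule is total RNA, whereas the titles and the library protocol describe ATAC-seq, as taken here.

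Gene spans and starts were those of RefSeq on GRCm38.p6. Starts come from promoter windows of 300 bases, and the first listed was used for motifs. A region counted at a limit or start if at least 1 bp lay within 1 kb. Coordinates count from 1. Analyses used Python 3.11.15, pandas 2.3.3 and SciPy 1.17.1. Overlap and motif code gave 0 disagreements with direct counts on simulated data with 1200 genes.

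The genes and lists were chosen with earlier results of these data known. Shares carry 95% Wilson intervals, and a count of 0 is limited at 3 counts. Genes named are those without a region, all paralogs, the 5 widest and 5 narrowest, those with the most or no distal regions, and the widest second and shared regions. Others were chosen after their values were seen. Some genes that this rule names are not reported here singly, but they are in the counts and medians.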

Additional observations from a re-analysis of the deposited data

How the results depend on the processing

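No paired analysis was possible because the regions carry no measurement of single libraries, so no replicate could be left out either. Of 36 alternatives, 27 stayed within the 95% interval of the reported value and 9 moved outside it. The share of ribosomal protein genes with a region at an outer limit was 82.2% when the region had to cover the limit (46.4% of all protein-coding genes) and 97.4% for the listed ribosomal proteins alone, against 91.1% as reported. It stayed between 87.8% and 93.3% with limits of 500 bp and 2 kb, stricter widths, region centres, 4 ribosomal genes of other symbols added, and listed starts added. The pseudogene share of 6.09% became 12.5% at 2 kb, 0.962% when the region had to cover the limit and 3.85% for regions of at least the median width. The median of 5 distal regions became 3 within 25 kb, 9 within 100 kb, 7 when only the gene's own end regions were left out, and 2 for regions of at least the median width, against 2, 7, 5 and 1 over all protein-coding genes. The windows of 25 and 100 kb and the stricter widths change these counts by construction. The share of covered starts was 91.3% at every distance tried from 0 bp to 2 kb and 89.9% for regions of at least the median width. The median width stayed between 699 and 721 bp. The alternatives with listed starts added and with every listed start used for motifs were chosen after seeing the data. The depth is unknown, so regions missed for lack of reads cannot be told apart from closed chromatin.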
